A study of Mus musculus with 7 samples.

Results

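The 10 genes described here encode the cyclooxygenases (Ptgs1, Ptgs2), a prostaglandin E synthase (Ptges), a prostaglandin D synthase (Ptgds), the 4 prostaglandin E receptors (Ptger1 to Ptger4), and 5-lipoxygenase with its activating protein (Alox5, Alox5ap). They were chosen by symbol for their place in the pathway, with earlier results of these data known. All 10 were among the 57010 gene identifiers of the count table. The libraries were made from mature white adipocytes, released by collagenase from the perigonadal fat of male mice that were 20 weeks old and ate standard chow. The controls were 3 libraries from FFA2 fl/fl mice. The Adipoq-F2-KO mice, with 4 libraries, carried the same floxed alleles together with Cre recombinase under the adiponectin promoter, which deletes the short-chain fatty acid receptor FFA2 in adipocytes. An effect of the Cre transgene itself cannot be told apart from that of the deletion, because the labels give Cre for 1 of the 2 groups alone. Whether a library came from 1 mouse or a pool is not given, so the p-values measure the spread between these libraries. Cells of the fat pad other than adipocytes keep FFA2 in this model.

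Cyclooxygenases turn arachidonic acid, released from membrane lipids, into prostaglandin H2, which individual synthases convert to prostaglandins E2, D2, I2, F2alpha and thromboxane. Ptgs1 is the constitutive cyclooxygenase and Ptgs2 the one induced by inflammatory and mechanical stimuli. In white adipose tissue prostaglandin E2 is the best known of these lipids: it restrains lipolysis through Ptger3, which lowers cAMP, whereas Ptger2 and Ptger4 raise cAMP and Ptger1 raises calcium. Alox5, helped by the membrane protein Alox5ap, opens the parallel branch that leads to the leukotrienes, and is best known in leukocytes.

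The promoters of the cyclooxygenase pair are shown because the pair holds one constitutive and one inducible gene, whose values are compared below. Each line gives the 250 bases before the annotated transcription start from RefSeq (GRCm38.p6), 5′ to 3′ on the gene's own strand, at chr2:36230176-36230425 (plus strand) for Ptgs1 and chr1:150099781-150100030 (plus strand) for Ptgs2. Capitals mark matches, on either strand, to a GC box (GGGCGG), a C/EBP motif (TTNCGCAA), a cAMP response element (TGACGTCA), a TATA box (TATAAA) or the NF-kB motif.
Ptgs1: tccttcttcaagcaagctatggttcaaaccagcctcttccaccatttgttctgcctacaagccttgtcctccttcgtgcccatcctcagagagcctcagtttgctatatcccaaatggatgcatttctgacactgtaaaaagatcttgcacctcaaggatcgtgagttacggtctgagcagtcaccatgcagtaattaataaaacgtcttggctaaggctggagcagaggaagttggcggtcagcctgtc
Ptgs2: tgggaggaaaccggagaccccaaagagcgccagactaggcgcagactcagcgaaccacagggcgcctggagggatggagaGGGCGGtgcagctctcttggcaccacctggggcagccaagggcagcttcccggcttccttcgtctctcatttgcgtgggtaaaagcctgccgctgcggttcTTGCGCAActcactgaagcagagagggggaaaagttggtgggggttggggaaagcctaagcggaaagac
The Ptgs2 window held a GC box 170 to 165 bases before the start and a C/EBP motif 69 to 62 bases before it, and these did not overlap. In the Ptgs1 window none of the 5 motifs matched. Of 32851 promoter windows of the same length, 32.7% held the GC box, 0.67% the C/EBP motif, 1.55% the cAMP response element, 12.4% the TATA box and 7.25% the NF-kB motif. Windows were found for 8 of the 10 genes. Besides Ptgs2, the GC box was found in the windows of Ptges, Ptger3, Ptger4 and Alox5, and the NF-kB motif in that of Ptgds. These are matches of letters and say nothing of binding in these cells.

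The deleted gene checked the labels. Ffar2, which encodes FFA2, averaged 34.5 ± 2.77 CPM (counts scaled by library size and normalized between libraries, SD, n = 3) in FFA2 fl/fl and 1.69 ± 0.634 CPM (n = 4) in Adipoq-F2-KO adipocytes, and it fell by 4.36 on the log2 scale (SE 0.22, edgeR adjusted p = 8.0e-06). Total counts lay between 30478997 and 39992605 per library. Mitochondrial genes took 4.41 to 5.77% of the counts in FFA2 fl/fl and 6.61 to 10.3% in Adipoq-F2-KO libraries. Adipoq-F2-KO library 4 had the highest mitochondrial share and the fewest counts. It also had the highest share of the gene ENSMUSG00000119584 (6.76%, against 0.619 to 3.75% in the other libraries). The part of these shares in the results below was not tested. A gene with 0 counts could still have stood at up to 0.150 to 0.197 CPM in a library of this size, a limit that covers counting error alone. Adipocyte markers (Adipoq, Plin1, Cidec and 9 others) summed to between 33157 and 48171 CPM in the 7 libraries, so the labelled cell type was present in each.

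Markers of other cells of the fat pad moved with genotype, and these values stand beside every result that follows. The summed level of 16 macrophage and monocyte markers (Adgre1, Csf1r, Cd68 and others) was 641 to 763 CPM in FFA2 fl/fl and 854 to 1050 CPM in Adipoq-F2-KO libraries. The 10 endothelial markers (Pecam1, Cdh5, Kdr and others) summed to 1077 to 1421 against 1494 to 2356 CPM. The 12 markers of fibroblast progenitors (Pdgfra, Dcn, Lum and others) summed to 946 to 1248 against 1435 to 1808 CPM. None of these 3 sums overlapped between the genotypes, and Adipoq-F2-KO library 4 was the highest in each while its adipocyte sum was the lowest of all 7. Taken singly, Pdgfra, Dcn and Lum each overlapped. The largest part of the progenitor sum was Col3a1 (390 to 613 against 633 to 782 CPM). The called progenitor marker was Icam1 (66.1 to 108 against 130 to 247 CPM, edgeR adjusted p = 0.0464). Among the tested genes of these lists, 14 of 16 macrophage markers, 10 of 10 endothelial markers and 11 of 12 progenitor markers had a positive log2 fold change, and 2, 0 and 1 of them were called, where 50.4% of all genes tested were positive and 1.02% called. Of the 12 adipocyte markers, 10 had a negative log2 fold change (median -0.26) and 0 were called. At an unadjusted edgeR p under 0.05, 5 of them were lower and 1 was higher, where 1255 and 1792 of all 17039 genes were. In bulk RNA, fewer cells of a type and less RNA per cell cannot be told apart. The part of these cells, adipocytes included, in the results below was not tested.

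None of the 9 genes that passed the filter on low counts was called different between the genotypes at an edgeR adjusted p under 0.05. Over all 17039 genes tested, the share called was 1.02%. Of the 9, 8 had a positive log2 fold change, with a median of 0.54, whereas 50.4% of all genes were positive, with a median of 0.00. At an unadjusted p under 0.05 the edgeR test found 4 of the 9, all higher in Adipoq-F2-KO (Ptgs1, Ptgs2, Ptgds and Ptger4), where 10.5% of all genes were higher at that level. Ptgds passed the filter only through its knockout libraries (raw counts 16 to 32, against 0 to 12 in the controls). Its place in these counts of members is therefore no support for a difference. DESeq2 called 6.75% of the 14704 genes to which it gave an adjusted p and 0 of these members, with 4 (Ptgds included) at an unadjusted p under 0.05. It gave Ptgds no adjusted p, so Ptgds could not be called there. With limma voom, which called 1.22% of the genes tested, 0 of the 9 were called and 2 had an unadjusted p under 0.05. The remaining gene, Ptger1, had too few counts to be tested. Without Adipoq-F2-KO library 4, which was the highest of the 7 libraries for 5 of the 9 genes (25.1% of all genes), 8 of 9 were still positive, the median was 0.28, and 1 gene (Ptgds) had an unadjusted edgeR p under 0.05. Over all 7 fits that left out 1 library, 7 or 8 of the 9 were positive and 1 to 4 had an unadjusted edgeR p under 0.05. That count was also 1 (Ptgs2) without FFA2 fl/fl library 1 or library 3. The share of all genes at that unadjusted level is given here for the edgeR fit on 7 libraries alone.

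**Figure D1:**
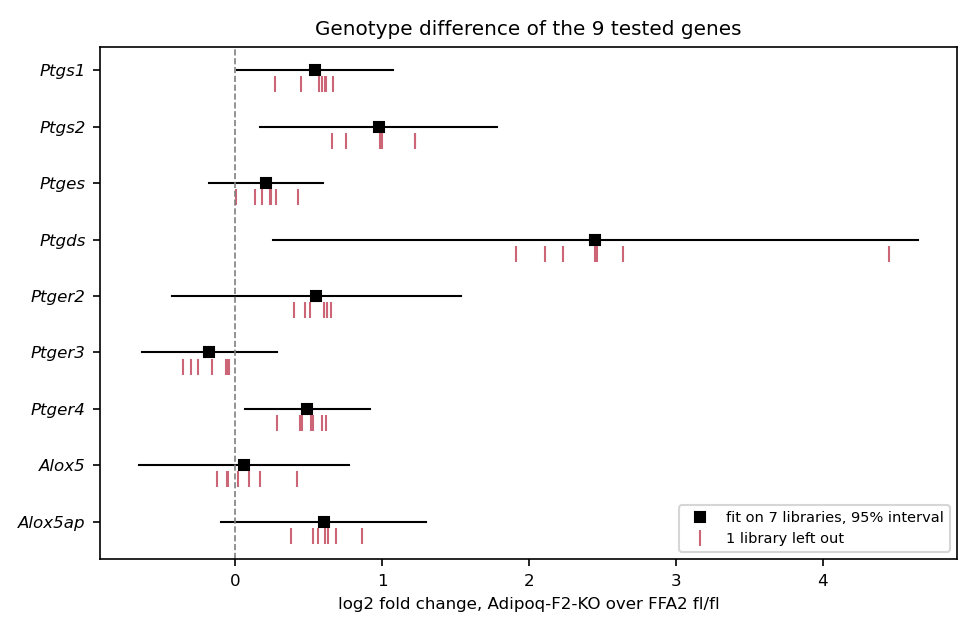
Log2 fold change (Adipoq-F2-KO over FFA2 fl/fl) of the 9 tested genes with its 95% confidence interval (x axis), and short red marks for the fits that leave out 1 library each. The intervals of Ptgs1, Ptgs2, Ptgds and Ptger4 lie above 0, that of Ptgds is the widest (0.26 to 4.65), and the red marks of Alox5 fall on both sides of 0.

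Ptgs1, the constitutive cyclooxygenase (ENSMUSG00000047250, chr2:36120438-36142284 in the deposited table, plus strand), was at 5.50, 6.58 and 6.88 CPM in the FFA2 fl/fl libraries. It was at 6.72, 7.93, 8.19 and 13.97 CPM in the Adipoq-F2-KO libraries. The groups overlapped, with 1 knockout library inside the control range and library 4 far above the rest. The mean was 6.32 ± 0.726 CPM (SD, n = 3) against 9.20 ± 3.24 CPM (n = 4). The log2 fold change was 0.54 (SE 0.24, edgeR adjusted p = 0.275), and 0.27 without library 4. On the log2 levels, an exact permutation test (two-sided) gave p = 0.114, where 3 against 4 libraries cannot give less than 0.0571.

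Ptgs2, the inducible cyclooxygenase (ENSMUSG00000032487, chr1:149975782-149983978, plus strand), had a wider spread. It was at 6.73, 3.43 and 5.16 CPM in FFA2 fl/fl and at 4.42, 9.84, 9.90 and 16.1 CPM in Adipoq-F2-KO libraries. In 3 of the knockout libraries the level stood above every control library, and library 1 lay within the control range. The mean was 5.10 ± 1.65 CPM (n = 3) against 10.1 ± 4.77 CPM (n = 4). The log2 fold change of 0.98 (SE 0.37, 95% confidence interval 0.17 to 1.78) did not pass the edgeR test, with an adjusted p of 0.199. Leaving out 1 library at a time gave between 0.66 (without Adipoq-F2-KO library 4) and 1.23 (without library 1). The exact permutation test gave p = 0.171. When every gene with at least 1 count was tested by edgeR in place of the filtered set, Ptgs2 was called higher (0.97, adjusted p = 0.00196) in a fit that called 3.76% of its genes higher and 4.92% in either direction. Ptgs2 and Ptger4 were the 2 members called in that fit.

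**Figure D2:**
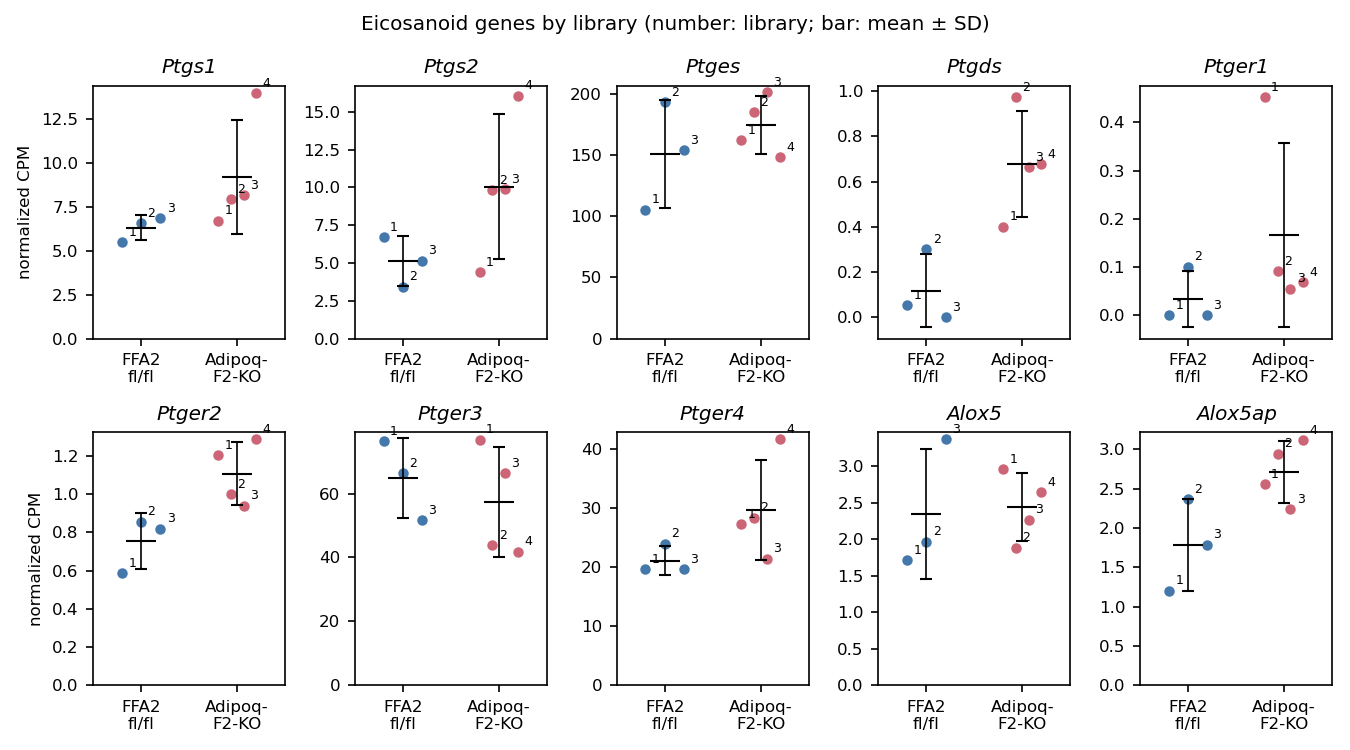
Normalized CPM (y axis, its own scale in each panel) of the 10 genes in the 3 FFA2 fl/fl and the 4 Adipoq-F2-KO libraries, 1 numbered point per library with the mean and SD of each group. Ptgds and Ptger2 are the tested genes whose groups do not overlap (2 of 9, beside 17.6% of all genes), and Ptgds passed the filter only through the knockout group. Adipoq-F2-KO library 4 is the highest point for Ptgs1, Ptgs2 and Ptger4.

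The balance within the cyclooxygenase pair was compared as a ratio of counts per kilobase of exon, which needs no scaling between libraries. Ptgs2 stood at 1.04, 0.443 and 0.636 times Ptgs1 in FFA2 fl/fl, and at 0.557, 1.05, 1.03 and 0.975 times in Adipoq-F2-KO libraries. In 3 of the 4 knockout libraries the 2 genes stood near equal, as they did in control library 1. On the log2 scale the mean ratio was -0.59 ± 0.62 (n = 3) against -0.19 ± 0.44 (n = 4), a difference of 0.40. The exact permutation test gave p = 0.457, and 0.457 after Benjamini-Hochberg adjustment over the 3 ratios tested.

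By the rule used for genes of like pattern, those closest to Ptgs2 over the 7 libraries were Limk1 (Pearson r of log2 CPM 0.977), a kinase of the actin cytoskeleton, Zyx (0.975), a focal adhesion protein, and Chuk (0.970), an IkB kinase. All were compared within the same 7 libraries, and 49 of the 10234 genes that averaged 5 CPM or more reached an r over 0.9. Their own differences were small. Zyx was at 200 to 218 CPM in FFA2 fl/fl and 203 to 246 CPM in Adipoq-F2-KO libraries (log2 fold change 0.14, edgeR adjusted p = 0.475).

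Ptges, the inducible prostaglandin E synthase that acts after the cyclooxygenases (ENSMUSG00000050737, chr2:30779483-30819875, minus strand), was the most abundant of the 10 genes per length. It was at 106, 194 and 154 CPM in FFA2 fl/fl and at 163, 186, 202 and 149 CPM in Adipoq-F2-KO libraries. Control library 1 was the lowest of all, and the other 6 libraries mixed. The mean was 151 ± 44.2 CPM (n = 3) against 175 ± 23.7 CPM (n = 4), and the log2 fold change of 0.21 (SE 0.18, 95% confidence interval -0.18 to 0.60) did not pass the edgeR test (adjusted p = 0.576). It was 0.00 without control library 1.

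Ptgds, the lipocalin-type prostaglandin D synthase (ENSMUSG00000015090, chr2:25356721-25360058, minus strand), was barely read. Its raw counts were 2, 12 and 0 in FFA2 fl/fl and 16, 32, 24 and 20 in Adipoq-F2-KO libraries, against total counts of 30478997 or more per library. As levels these were 0.0534, 0.302 and 0 CPM against 0.401, 0.972, 0.664 and 0.678 CPM. Every knockout library lay above every control library, which was so, in this direction, for 8.86% of all genes. Ptgds passed the filter on low counts only through the knockout group, so this and the tests that follow describe it and are no support for a difference. The log2 fold change was 2.45 (SE 1.00, 95% confidence interval 0.26 to 4.65, edgeR adjusted p = 0.234), and the exact permutation p was 0.0571, the smallest that 3 against 4 libraries can give. Without control library 2, which held 12 of the 14 control counts, the log2 fold change was 4.45.

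The E receptors were led by Ptger3, the receptor that lowers cAMP (ENSMUSG00000040016, chr3:157272529-157351525, plus strand). It was at 76.4, 66.5 and 51.6 CPM in FFA2 fl/fl and at 77.0, 43.8, 66.5 and 41.9 CPM in Adipoq-F2-KO libraries. The groups overlapped, and knockout libraries 2 and 4 lay below every control library. Means were 64.8 ± 12.5 CPM (n = 3) and 57.3 ± 17.3 CPM (n = 4), with a log2 fold change of -0.18 (SE 0.21, 95% confidence interval -0.64 to 0.28, edgeR adjusted p = 0.700). Ptger3 was the only one of the 9 tested genes with a negative value.

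Ptger4, which raises cAMP (ENSMUSG00000039942, chr15:5236142-5273668, minus strand), was at 19.6, 23.9 and 19.7 CPM in FFA2 fl/fl libraries. In Adipoq-F2-KO libraries it was at 27.2, 28.3, 21.4 and 41.6 CPM. In 3 knockout libraries the level exceeded all controls, and library 3 lay among the controls. The mean was 21.1 ± 2.48 CPM (n = 3) against 29.6 ± 8.53 CPM (n = 4). The log2 fold change was 0.49 (SE 0.19, 95% confidence interval 0.07 to 0.91, edgeR adjusted p = 0.219) and 0.28 without library 4. Testing every gene with at least 1 count, edgeR called it higher (0.48, adjusted p = 0.0212). Its exons share 82 bases with those of Ttc33 on the opposite strand, and whether the counting used strand is not given.

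Ptger2, the other receptor that raises cAMP (ENSMUSG00000037759, chr14:45225652-45241277, plus strand), was low. It was at 0.587, 0.857 and 0.820 CPM in FFA2 fl/fl and at 1.20, 1.00, 0.940 and 1.29 CPM in Adipoq-F2-KO libraries. The groups did not overlap, by a margin that was narrow between control library 2 and knockout library 3. The means were 0.755 ± 0.146 CPM (n = 3) and 1.11 ± 0.165 CPM (n = 4). The log2 fold change was 0.55 (SE 0.45, 95% confidence interval -0.43 to 1.54, edgeR adjusted p = 0.557), with an exact permutation p of 0.0571.

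Ptger1, the receptor that raises calcium (ENSMUSG00000019464, chr8:84393307-84399382, plus strand), had raw counts of 0, 4 and 0 in FFA2 fl/fl and 18, 3, 2 and 2 in Adipoq-F2-KO libraries. All but 1 of these libraries lay under the floor of 6 counts (3 fragments, with both mates counted). Ptger1 was not tested, and no difference was detectable at this depth.

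**Figure D3:**
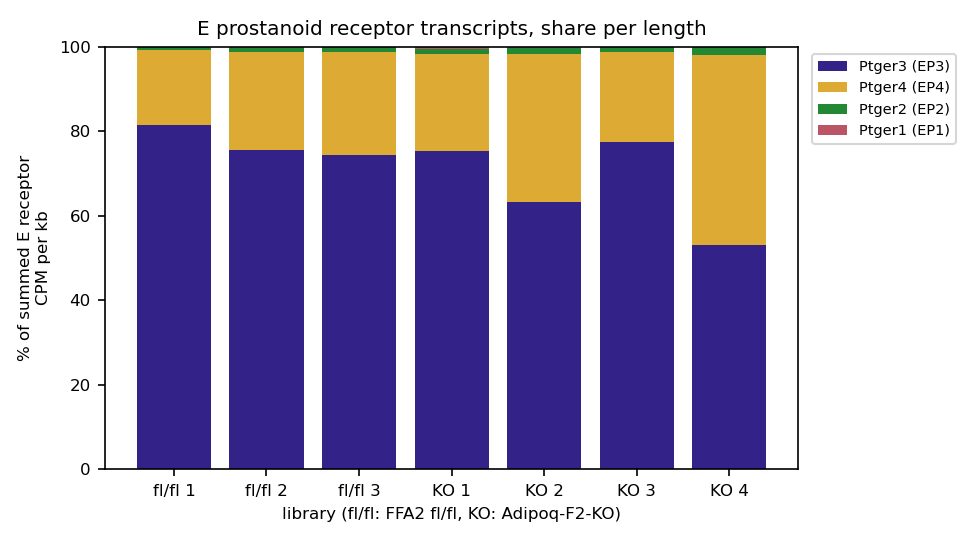
Share (percent, y axis, from 0) of each E receptor in the sum of the 4, per kilobase of exon, in each of the 7 libraries (bars). Ptger3 holds 74.4 to 81.4% in FFA2 fl/fl and 53.0 to 77.4% in Adipoq-F2-KO libraries, Ptger4 holds most of the rest, and Ptger1 and Ptger2 are thin bands.

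Per length, Ptger3 made up 81.4, 75.6 and 74.4% of the E receptor level in FFA2 fl/fl and 75.5, 63.3, 77.4 and 53.0% in Adipoq-F2-KO libraries. The lowest shares were those of knockout libraries 2 and 4, and the groups overlapped. Ptger4 made up 17.9 to 24.3% in the controls and 21.3 to 45.1% in the knockouts. The ratio of Ptger4 to Ptger3 was 0.219, 0.308 and 0.326 against 0.302, 0.553, 0.276 and 0.850. Its mean on the log2 scale was -1.83 ± 0.31 (n = 3) against -1.17 ± 0.77 (n = 4), a difference of 0.67 (exact permutation p = 0.343, 0.457 after adjustment over the 3 ratios), and of 0.35 without knockout library 4.

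Alox5, the enzyme that starts leukotriene synthesis (ENSMUSG00000025701, chr6:116387038-116438139, minus strand), was at 1.71, 1.97 and 3.37 CPM in FFA2 fl/fl and at 2.96, 1.88, 2.27 and 2.65 CPM in Adipoq-F2-KO libraries. All knockout libraries lay within the control range. The means were 2.35 ± 0.893 CPM (n = 3) and 2.44 ± 0.466 CPM (n = 4), and the log2 fold change was 0.06 (SE 0.33, 95% confidence interval -0.66 to 0.77, edgeR adjusted p = 0.951). Its sign turned in 3 of the 7 fits that left out 1 library, with values from -0.13 to 0.42.

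Alox5ap, the activating protein that presents arachidonic acid to Alox5 (ENSMUSG00000060063, chr5:149201577-149224963, plus strand), was at 1.20, 2.37 and 1.79 CPM in FFA2 fl/fl. It was at 2.56, 2.95, 2.24 and 3.12 CPM in Adipoq-F2-KO libraries, 3 of which exceeded all controls. The mean was 1.79 ± 0.584 CPM (n = 3) against 2.72 ± 0.395 CPM (n = 4). The log2 fold change of 0.60 (SE 0.32, 95% confidence interval -0.10 to 1.30) did not pass the edgeR test (adjusted p = 0.346). Per length Alox5ap stood 1.54 to 3.48 times as high as Alox5 in the controls and 2.50 to 4.51 times in the knockouts. The difference of the log2 ratio was 0.54 (exact permutation p = 0.229, 0.457 after adjustment over the 3 ratios).

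Levels between genes were compared as CPM per kilobase of exon, averaged over the 7 libraries. Ptges (41.9 ± 8.39, SD, n = 7) stood above Ptger3 (10.6 ± 2.59) and Ptger3 above Ptger4 (3.90 ± 1.16). Next came Ptgs1 (2.05 ± 0.720), Ptgs2 (1.73 ± 0.959) and Alox5ap (1.63 ± 0.467), whose ranges overlapped. Ptgs1 was above Ptgs2 in 4 of 7 libraries and Ptgs2 above Alox5ap in 4 of 7. Below them lay Alox5 (0.585 ± 0.150), Ptgds (0.266 ± 0.215), Ptger2 (0.184 ± 0.0458) and Ptger1 (0.0201 ± 0.0286). The ranges of Alox5 and Ptgds, and of Ptgds and Ptger2, overlapped, as did those of Ptger4 and Ptgs1, although Ptger4 was the higher of that pair in 7 of 7 libraries. The E synthase and the cAMP-lowering E receptor thus had the highest levels of the 10 genes, with the cyclooxygenases far below their synthase.

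**Figure D4:**
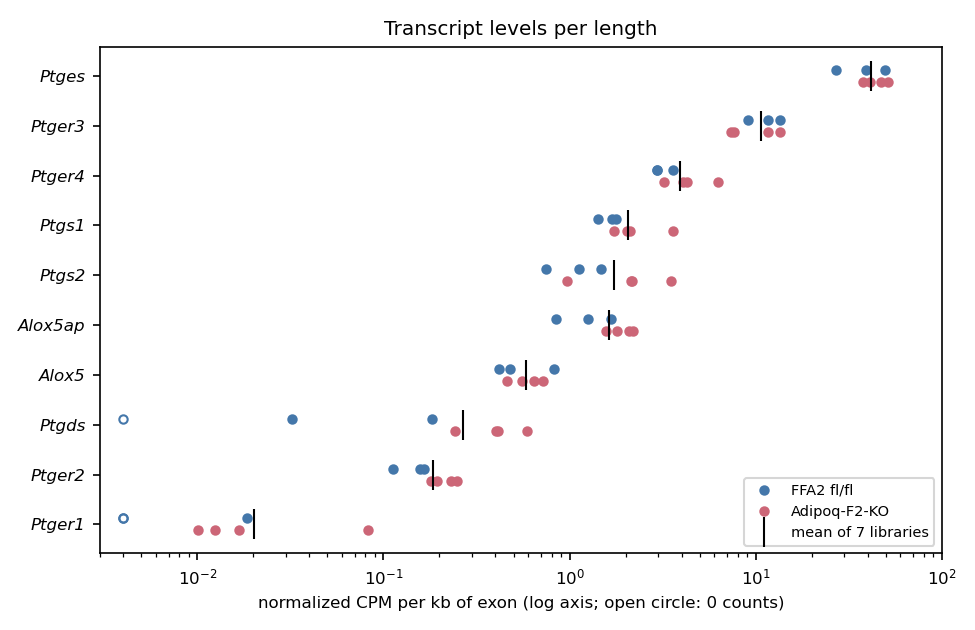
Level per length (CPM per kilobase of exon, log axis) of the 10 genes in each library, ordered by their mean over 7 libraries. Ptges at 41.9 and Ptger3 at 10.6 are the highest means, and Ptger1 at 0.0201 the lowest.

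The 5 genes with their highest value in Adipoq-F2-KO library 4 shared that library with the macrophage, endothelial, progenitor, mast cell and platelet marker sums. The other marker lists were highest in other libraries. Relative to the FFA2 fl/fl mean, library 4 held 3.15 times the Ptgs2 level, 2.21 times Ptgs1 and 1.97 times Ptger4. The same library held 1.50 times the macrophage sum, 1.90 times the endothelial sum and 1.58 times the progenitor sum, and 0.721 times the adipocyte sum. It also had the highest mitochondrial share of the 7 libraries (10.3%). Markers of mast cells (Cpa3, Ms4a2, Tpsb2 and 6 others), which make prostaglandin D2 and leukotrienes, summed to 24.2 to 28.2 CPM in FFA2 fl/fl and 26.8 to 53.3 CPM in Adipoq-F2-KO libraries, with Fcer1a at 0 in all 7. In Adipoq-F2-KO library 4, Kit (26.2 CPM) and Gata2 (18.3 CPM), which other cells express too, made up most of that sum. Between the genotypes the mast cell protease Tpsb2 had a log2 fold change of -1.03 (edgeR adjusted p = 0.493). In library 4 it was at 1.22 CPM, above the other knockout libraries (0.122 to 0.351 CPM) and within the control range (0.801 to 1.41 CPM). Ms4a2 was read in library 4 alone (16 counts), while Cpa3 and Cma1 were not highest there. Markers of platelets (Pf4, Ppbp, Itga2b and 5 others), which are rich in Ptgs1, summed to 5.65 to 7.91 against 7.80 to 13.9 CPM. Most of the highest sum, in Adipoq-F2-KO library 4, was Pf4 (10.4 CPM), and Gp9, Gp1bb, Gp5, Gp6 and Treml1 were under the filter on low counts. Neutrophil markers (S100a8, S100a9 and 8 others), with Ly6g at 0 in all 7, summed to 2.65 to 4.31 against 2.58 to 5.14 CPM. Genes induced by tissue dissociation (Fos, Fosb, Jun and 15 others) summed to 14318 to 17730 against 14623 to 16542 CPM. Mesothelial markers (Msln, Upk3b, Lrrn4 and 6 others) summed to 11.3 to 57.0 against 10.7 to 16.4 CPM. Most of the highest sum, in FFA2 fl/fl library 1, was the keratins Krt8 (31.1 CPM) and Krt19 (18.7 CPM), with Msln at 0.0534 CPM. Epididymal markers, with Lcn5 at 0 in all 7, summed to 0.410 to 3.00 against 0 to 30.6 CPM, and male germ cell markers to 0 to 5.29 against 3.31 to 157 CPM. The part of these cells in the members' levels was not tested.

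**Figure D5:**
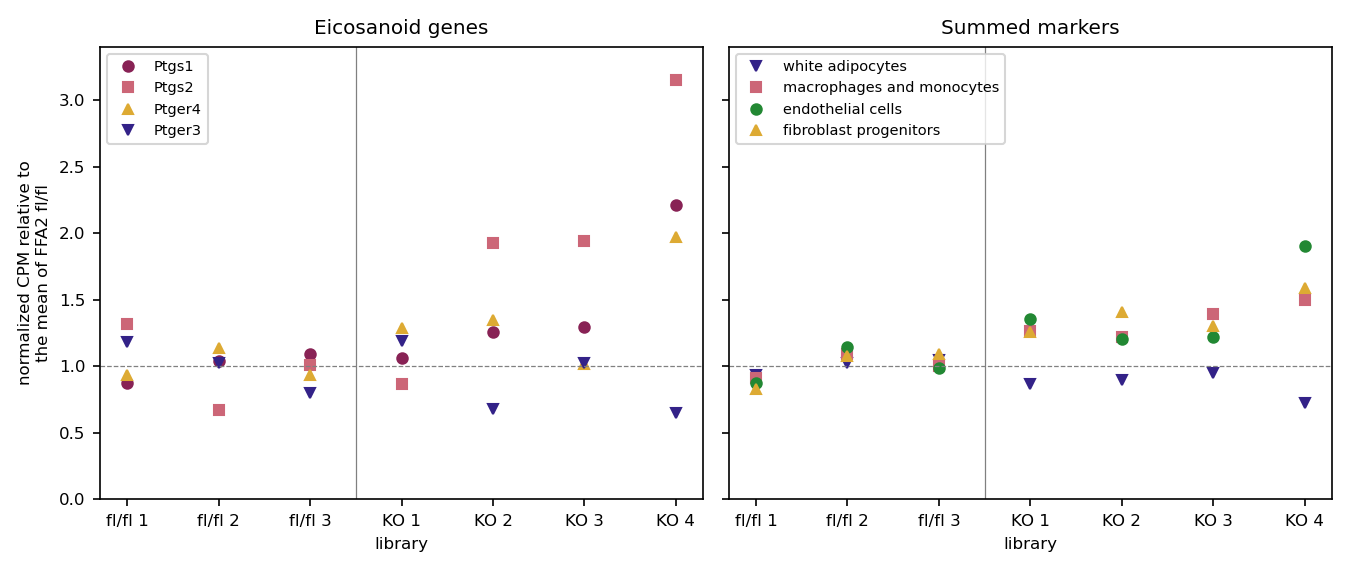
Level relative to the FFA2 fl/fl mean (y axis, 1 = that mean) in each of the 7 libraries, for Ptgs1, Ptgs2, Ptger4 and Ptger3 (left) and for the summed markers of 4 cell types (right). Adipoq-F2-KO library 4 is the highest for Ptgs1 (2.21), Ptgs2 (3.15) and Ptger4 (1.97) and for the macrophage (1.50), endothelial (1.90) and progenitor (1.58) sums.

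Beyond these 10 genes, 64 other genes of the eicosanoid pathway were read from the same fit. Of the 49 that passed the filter, 22 had a positive and 27 a negative log2 fold change, with a median of -0.01 beside 0.00 over all genes. None was called higher (0.798% of all genes were) and 1 was called lower (0.217% of all genes). At an unadjusted edgeR p under 0.05 there were 6 higher and 4 lower of the 49, where 1792 and 1255 of all 17039 genes were. Pla2g2a, Pla2g2f and Alox12b were at 0 in all 7 libraries.

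The called gene was Cmklr1, a receptor for chemerin and for the lipid mediator resolvin E1 that adipocytes express. It was at 322, 314 and 302 CPM in FFA2 fl/fl and at 198, 160, 238 and 157 CPM in Adipoq-F2-KO libraries. Every knockout library lay below every control library. The mean fell from 313 ± 10.1 CPM (n = 3) to 188 ± 37.9 CPM (n = 4), a log2 fold change of -0.73 (SE 0.14, edgeR adjusted p = 0.0396). The value lay between -0.86 and -0.65 when 1 library was left out, and the call was kept in 2 of these 7 fits (adjusted p 0.0337 to 0.207), those without Adipoq-F2-KO library 3 or library 4. The part of the lower adipocyte markers in the Cmklr1 difference was not tested.

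Among genes that release arachidonic acid, 0 of 11 tested were called. The most abundant, Mgll, a lipase of monoacylglycerols, was at 1624 CPM in FFA2 fl/fl and 1608 CPM in Adipoq-F2-KO libraries on average (log2 fold change -0.01), a sign that other settings turned. Plaat3, the adipocyte phospholipase A2, was at 830 against 714 CPM (-0.22, edgeR adjusted p = 0.329), with no overlap between the groups. Among 8 tested prostanoid synthases 0 were called, and the most abundant, Akr1b3 and Prxl2b, both prostaglandin F synthases, differed by -0.17 each on the log2 scale (edgeR adjusted p = 0.569 and 0.697). Of 6 tested genes for transport and breakdown 0 were called. Hpgd, which inactivates prostaglandins, was at 76.7 against 71.0 CPM (-0.11, adjusted p = 0.597), and the prostaglandin reductase Ptgr2 at 79.9 against 66.8 CPM (-0.26, adjusted p = 0.184), without overlap.

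Of 4 other prostanoid receptor genes tested 0 were called. Ptgfr, the prostaglandin F receptor, was at 4.66 against 2.84 CPM on average (-0.72, edgeR adjusted p = 0.273), and Ptgfrn, its regulator, differed by -0.04 (adjusted p = 0.926), a sign that turned when single libraries were left out. Among 12 tested leukotriene genes 0 were called, and Mgst3, a leukotriene C4 synthase, and the exporter Abcc1 differed by -0.17 and -0.11 (adjusted p = 0.369 and 0.624). In the group of other lipoxygenases and fatty acid oxygenation, 8 were tested. The 1 called was Cmklr1, a receptor listed with this group, and no lipoxygenase or oxygenation enzyme was called. Ephx2, an epoxide hydrolase, differed by -0.16 (adjusted p = 0.535).

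Another 3 genes of the list, chosen after their values were seen, did not pass the edgeR test but were called by DESeq2, which called 6.75% of the genes with an adjusted p. Hpgds, the hematopoietic prostaglandin D synthase found in mast cells and macrophages, was at 1.36, 1.61 and 0.937 CPM in FFA2 fl/fl and at 3.66, 3.58, 2.77 and 3.97 CPM in Adipoq-F2-KO libraries. The groups did not overlap, and the log2 fold change was 1.42 (SE 0.30, edgeR adjusted p = 0.0530, DESeq2 adjusted p = 7.2e-04). Ptgir, the prostacyclin receptor, averaged 2.11 against 4.58 CPM (1.11, adjusted p = 0.119 by edgeR and 0.0261 by DESeq2). Slco2a1, the prostaglandin transporter known from endothelium, averaged 9.71 against 16.2 CPM (0.74, adjusted p = 0.127 by edgeR and 0.0322 by DESeq2). Neither of the latter overlapped between the groups, which was so for 17.6% of all genes in either direction. The macrophage and endothelial marker sums given above also did not overlap between the groups, and their part in these 3 differences was not tested.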

How the data were processed

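Stranded libraries of polyadenylated RNA were sequenced from both ends. The authors used Trimmomatic, STAR and featureCounts for trimming, alignment and counting, and the tools' versions and options are not given in the sources used here. The deposited values are unnormalized whole-number counts for each gene and library, and the same table gives gene positions and exon lengths. The submitters' processing notes name GRCm38 and mm10, but the deposited gene coordinates differ from GRCm38, so gene coordinates are as in the deposited table, and the promoter windows alone are GRCm38.p6. Most low counts were even (85.5 to 88.8% of counts from 1 to 49), so both mates of a pair appear to have been counted.

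The identifiers were named with a GRCm38 gene table (52029 of 57010 had a symbol), 3 listed genes under an older symbol. Genes were filtered with filterByExpr, scaled with TMM (factors 0.968 to 1.02) and tested with the two-sided quasi-likelihood test of edgeR 4.0.16 in R 4.3.3, genotype being the only term. Benjamini-Hochberg adjustment ran over the 17039 genes tested, and a gene was called at an adjusted p under 0.05. The common biological coefficient of variation was 0.258. Levels are TMM-normalized CPM, counts scaled by library size. Ratios used counts per kilobase with 0.5 counts added and an exact two-sided permutation test (scipy 1.17.1). DESeq2 1.42.0 and limma voom (limma 3.58.1) were alternatives, and the tests were tried on simulated counts. Libraries of a genotype all differed from each other by more than sampling noise (chi-square over degrees of freedom 41.5 to 165), so each was kept.

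The 10 members, the 6 pathway groups and the 11 marker lists were chosen with earlier results of these data known. The text names all members, pathway genes that were called, the 2 most abundant of each pathway group, the 3 genes most correlated with the member of smallest p and the first 3 markers of a list. Ptgs2 was that member. Replicate numbers in the labels name samples within a genotype and were not used to pair them.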

Additional observations from a re-analysis of the deposited data

Results flagged for a closer look

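In the Adipoq-F2-KO group, 40 sets of 4 values were examined for a library far from the other 3, and 5 had one. Chance gives about 1 in 20 such sets. A value is given here if its gap to the nearest library, as a share of the group's whole range, exceeded Dixon's critical value for 4 samples. Ptger1 was at 0.452 CPM in library 1 (18 counts), against 2 or 3 counts in each of the others. The log2 ratio of Ptgs2 to Ptgs1 was -0.84 in library 1 and near 0 in the other 3. The summed mast cell markers stood at 53.3 CPM in library 4, most of it Kit (26.2 CPM) and Gata2 (18.3 CPM). Between the genotypes the proteases Tpsb2 and Mcpt4 had negative log2 fold changes (-1.03 and -0.38). Within the knockout group both were highest in library 4 (1.22 and 1.83 CPM), as were Ms4a2 and Hdc, while Cpa3 and Cma1 were not. Also apart stood the epididymal markers at 30.6 CPM in library 3 and the male germ cell markers at 157 CPM in library 2, each far above the other knockout libraries.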

How the results depend on the processing

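Over all genes, edgeR called 136 genes as higher in the knockout and 37 as lower. With every gene of at least 1 count tested it called 1071 and 332, and DESeq2 called 739 and 253. Leaving out 1 library at a time gave 0 to 151 higher and 1 to 30 lower, or 1, 41 and 5 genes in all when FFA2 fl/fl library 1, 2 or 3 was dropped and 11 and 20 when Adipoq-F2-KO library 2 or 3 was. Of the members, 2 were called when every gene of at least 1 count was tested, Ptgs2 (0.97) and Ptger4 (0.48), and 0 in each of the other settings run. The other pathway genes called higher were 3 of 61 in the fit on every gene of at least 1 count, where 3.76% of all its genes were. With DESeq2 they were 3 of 49, where 739 of the 14704 genes with an adjusted p were. Those called lower were 0 to 1 when 1 library was left out. The causes were not tested. Alox5 changed sign when 1 library was left out (-0.13 to 0.42), as did Mgll (-0.066 to 0.037) and Ptgfrn (-0.20 to 0.076). The other members kept their sign in every setting run, namely DESeq2 size factors, no filter, DESeq2, limma voom, no mitochondrial genes, the replicate block and each library left out. Ptger1 was under the filter and has a value in the unfiltered fit alone, where its log2 fold change was 2.18 (SE 2.03, edgeR adjusted p = 0.599).

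The replicate numbers share only a number: deviations of same-numbered libraries correlated at 0.0315, -0.0242 and -0.0203. A fit with the replicate block called 191 genes higher and 33 lower, and 0 members. In that block Mgll was at 0.035, Ptgs2 at 0.63 (adjusted p = 0.483) and Ptger4 at 0.28, and Cmklr1 kept its call. Depth limits Ptgds, Ptger1 and Ptger2, which had under 50 counts in each library.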
